A study of Mus musculus with 4 samples.

Results

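The gasdermins described here are the genes Gsdmc, Gsdmc2, Gsdmc3, Gsdmc4, Gsdmd and Gsdme, chosen by symbol as 6 of the 32285 genes in the feature list of a mouse colon single-cell RNA sequencing series. Single colon cells of C57/BL6J mice were tagged with a hashtag antibody per condition, mixed within a batch, sorted for viability and counted by a 3' droplet assay in 2 batches. The conditions were JUP-KO mice treated with dextran sulfate sodium (DSS, which damages the epithelium of the large bowel), untreated JUP-KO mice, wild type mice given DSS and untreated wild type mice. The sources used here do not give the age or sex of the mice, the DSS dose and schedule, the cells in which Jup was deleted, or the number of mice per tag.

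The antibody features are named TG_DSS, TG_WT, Ctrl_DSS and Ctrl_WT. TG_DSS is JUP-KO given DSS and Ctrl_WT is untreated wild type under both readings of the labels. By name, Ctrl_DSS would be wild type with DSS and TG_WT untreated JUP-KO. If the tags instead follow the numbering of the antibodies, these 2 change places. Groups are therefore called cells labelled with a tag. Levels are given in CPM, the UMIs of a gene in the summed cells of a class and batch per 1000000 of all their UMIs. Jup itself had 22.8 and 38.6 CPM in epithelial-like cells labelled TG_DSS in batches 1 and 2, 77.4 and 83.5 in TG_WT, 12.9 and 8.96 in Ctrl_DSS, and 69.1 and 66.8 in Ctrl_WT. Jup was thus lowest in TG_DSS and Ctrl_DSS, which are both the DSS groups by name and both the JUP-KO groups by antibody number; no group was assigned from this. The sources do not say whether the counted 3' end lies outside the deleted sequence.

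After filtering, batch 1 held 7155 cells with a median of 12309 UMIs and batch 2 held 6471 cells with a median of 7091. No tag was called on 4539 and 2611 cells, which enter the levels by cell class but no comparison between tags. In batches 1 and 2, a single tag was called on 1245 and 1314 cells labelled TG_DSS, 521 and 1263 labelled TG_WT, 407 and 492 labelled Ctrl_DSS, and 177 and 92 labelled Ctrl_WT. Batches 1 and 2 shared 14 barcodes among kept cells. The 3' assay counts 1 end per transcript, so levels are not divided by gene length.

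Gasdermins are membrane pore-forming proteins that are held inactive until a protease separates the pore-forming part from its inhibitory part. Inserted pores release interleukin-1 family cytokines and can end in lytic cell death. Gsdmd is the target of inflammatory caspases, encoded by Casp1 and Casp4. Cleavage by Casp8 has been described for human GSDMC, and the mouse Gsdmc genes are known from the response of gut epithelium to type 2 cytokines.

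The 4 Gsdmc genes lie side by side on the minus strand of mouse chromosome 15 (mm10, GENCODE M21): Gsdmc at 63775968 to 63808759, Gsdmc2 at 63824346 to 63845177, Gsdmc3 at 63857724 to 63878558 and Gsdmc4 at 63891264 to 63912297. Between and beside them lie the pseudogenes Gsdmcl1, Gsdmcl2 and Gsdmcl-ps on the plus strand, which are not in the feature list. Gsdmd lies elsewhere on chromosome 15, at 75862327 to 75867408 on the plus strand. Gsdme lies on chromosome 6, at 50188888 to 50263862 on the minus strand.

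The Gsdmc coding sequences are close copies, which bears on how reads are assigned among them. Gsdmc2 and Gsdmc3 were identical at 97.1% of 1440 aligned coding bases, and each matched Gsdmc4 at 93.8% of 1434. Gsdmc matched the other 3 at 87.0 to 88.1%, and Gsdmd and Gsdme matched each other and the Gsdmc genes at 62.3 to 63.4%. The first 75 coding bases are shown to set Gsdmc apart, with capitals at the 9 positions where the 4 genes are not all alike; over this stretch Gsdmc2, Gsdmc3 and Gsdmc4 read the same.
Gsdmc: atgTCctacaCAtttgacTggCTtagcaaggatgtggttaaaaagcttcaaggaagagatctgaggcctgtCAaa
Gsdmc2: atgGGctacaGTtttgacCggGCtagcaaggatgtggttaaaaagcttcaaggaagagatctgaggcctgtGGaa
Gsdmc3: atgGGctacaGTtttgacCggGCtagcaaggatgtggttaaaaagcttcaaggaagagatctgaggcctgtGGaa
Gsdmc4: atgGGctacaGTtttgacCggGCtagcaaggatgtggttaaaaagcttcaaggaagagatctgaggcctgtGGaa

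The 60 coding bases where Gsdmc2, Gsdmc3 and Gsdmc4 differ most are shown next, with capitals at the 16 positions that are not alike. They are coding bases 808 to 867 of Gsdmc2 and Gsdmc3 and 814 to 873 of Gsdmc4, all 5' to 3'.
Gsdmc2: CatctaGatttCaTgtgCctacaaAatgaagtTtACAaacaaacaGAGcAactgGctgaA
Gsdmc3: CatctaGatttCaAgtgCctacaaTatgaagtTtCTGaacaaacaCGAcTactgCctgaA
Gsdmc4: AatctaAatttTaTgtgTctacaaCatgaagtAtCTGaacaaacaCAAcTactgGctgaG

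A 3' assay reads the transcript end, so the last 500 bases of each annotated transcript were searched for 90-base windows shared without mismatch with another of these genes. None of the Gsdmc4, Gsdmd or Gsdme windows of that length was shared. Shared windows made up 18.5 to 31.4% for Gsdmc2 transcripts, 10.2 to 18.7% for Gsdmc3 and 10.5 to 11.2% for Gsdmc. With windows of 50 bases, the shares were 33.3 to 55.7% for Gsdmc2, 25.3 to 38.8% for Gsdmc3, 29.3 to 29.9% for Gsdmc, 7.98% for Gsdmc4 and 0% for Gsdmd and Gsdme. Reads in shared windows cannot be placed on 1 gene, so by this search Gsdmc2, Gsdmc3 and Gsdmc levels are less certain than those of Gsdmc4. The pseudogenes Gsdmcl1, Gsdmcl2 and Gsdmcl-ps were not among the transcripts searched. The sources used here name the counting program but not its treatment of such reads.

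Gsdmc was nearly absent. It had 0 UMIs in kept cells of batch 1 and 2 UMIs in batch 2, one of them in a colonocyte-like cell. It was not tested. The other 5 genes were counted in both batches: Gsdmc4 had 32399 and 19051 UMIs in kept cells, Gsdmc2 9443 and 4938, Gsdmd 5759 and 4945, Gsdme 2927 and 1969, and Gsdmc3 2126 and 1076.

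Gsdmc2 and Gsdmc4 were highest in the Clca4b cluster described next and in absorptive and other epithelial-like cells. Among the classes, Gsdmd was highest in that cluster and in absorptive cells, with levels near or below free RNA in most others. Gsdme was highest in enteroendocrine-like cells among the classes, and higher still in a small cluster within other epithelial-like cells. Classes were built by clustering without the 6 genes, and no class was tested against another. Gsdmc4 was highest in a cluster of 253 cells led by Clca4b, Cxcl5, Duoxa2 and Nos2, at 1717 CPM in batch 1 and 1250 in batch 2. All 12 epithelial markers were detected in that cluster, but it was left unnamed because Ly6g, best known from neutrophils, was among its leading genes. Colonocyte-like cells, the absorptive cells of the colon, followed at 547 and 490 CPM of Gsdmc4 (mean 518 ± 40.1, SD, n = 2 batches). Other epithelial-like cells had 555 and 463, which overlapped with colonocyte-like cells. Stem and transit-amplifying-like cells of the crypt had 205 and 263, below both. Free RNA, the pooled barcodes of up to 100 UMIs, had 204 and 178 CPM, near that level in batch 1 and below it in batch 2. This class pools a dividing cluster led by Birc5 with a cluster led by Htr4 and Lgr5, which are given apart below.

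The lowest Gsdmc4 levels among classes of over 1000 cells were in goblet-like cells at 56.9 and 10.5 CPM, macrophage and monocyte-like cells at 46.5 and 17.8, and neutrophil-like cells at 17.9 and 8.59. These levels lay far below that of free RNA, and the part of free RNA in them was not tested. The free RNA level is a share of UMIs in the pooled barcodes, not the amount carried into a cell. The enteroendocrine-like level of 115 and 193 CPM rested on few cells: in batch 2 a single cell held 84.0% of its 288 Gsdmc4 UMIs. Without cells of over 3 times the median UMIs of their class, the mean enteroendocrine-like level of Gsdmc4 was 9.70 CPM, against 154 with them.

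Gsdmc2 and Gsdmc3 were counted at lower levels than Gsdmc4 in the same epithelial classes. Gsdmc2 had 291 and 180 CPM in the Clca4b cluster, 246 and 199 in other epithelial-like cells and 139 and 108 in colonocyte-like cells. The Clca4b cluster and the other epithelial-like cells overlapped between batches. Stem and transit-amplifying-like cells had 65.1 and 74.7 CPM of Gsdmc2 and goblet-like cells 16.1 and 2.97, against 72.7 and 46.9 in free RNA. A cluster of 312 cells with both epithelial and neutrophil markers, not ranked as a class, had 78.2 and 75.5 CPM of Gsdmc2 and 241 and 241 of Gsdmc4. Gsdmc3 was highest in other epithelial-like cells at 42.2 and 32.3 CPM, followed by stem and transit-amplifying-like, colonocyte-like and Clca4b cells at 18.4 to 28.3, which overlapped with each other.

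Gsdmd had 263 and 257 CPM in the Clca4b cluster and 105 and 120 in colonocyte-like cells. The next classes of at least 50 cells were macrophage and monocyte-like cells at 46.5 and 59.3, other epithelial-like cells at 44.6 and 55.7, and dendritic-like cells at 42.8 and 41.5. The first pair overlapped between batches. The 42 endothelial-like cells had 79.9 and 69.2 CPM, on 9 UMIs in all. Within other epithelial-like cells, a cluster of 8 cells led by Ccl20 held 183 CPM of Gsdmd over both batches. Goblet-like cells had 34.5 and 35.6 CPM, stem and transit-amplifying-like cells 28.2 and 27.4, and neutrophil-like cells 23.6 and 23.9. Gsdmd in free RNA was 48.9 and 58.6 CPM. Among these classes of at least 50 cells, only the Clca4b and colonocyte-like levels stood clearly above that in both batches. The other levels are not thereby shown to be background, and the part of free RNA in them was not tested.

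Gsdme had 61.9 and 115 CPM in enteroendocrine-like cells, the hormone cells of the epithelium, against 28.5 and 25.4 in free RNA. Other epithelial-like cells had 36.1 and 30.1, goblet-like cells 28.8 and 34.0 and stem and transit-amplifying-like cells 29.9 and 29.9, all near free RNA. Goblet-like cells overlapped with each of the other two, which did not overlap with each other. Within other epithelial-like cells a small cluster of 87 cells led by Kcnma1 held 91.5 and 166 CPM of Gsdme, above enteroendocrine-like cells in both batches. Colonocyte-like cells had 19.3 and 18.5 CPM and the Clca4b cluster 7.77 and 11.2. The Clca4b cluster, where Gsdmc4 and Gsdmd were highest, was thus among the lowest classes for Gsdme.

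**Figure D1:**
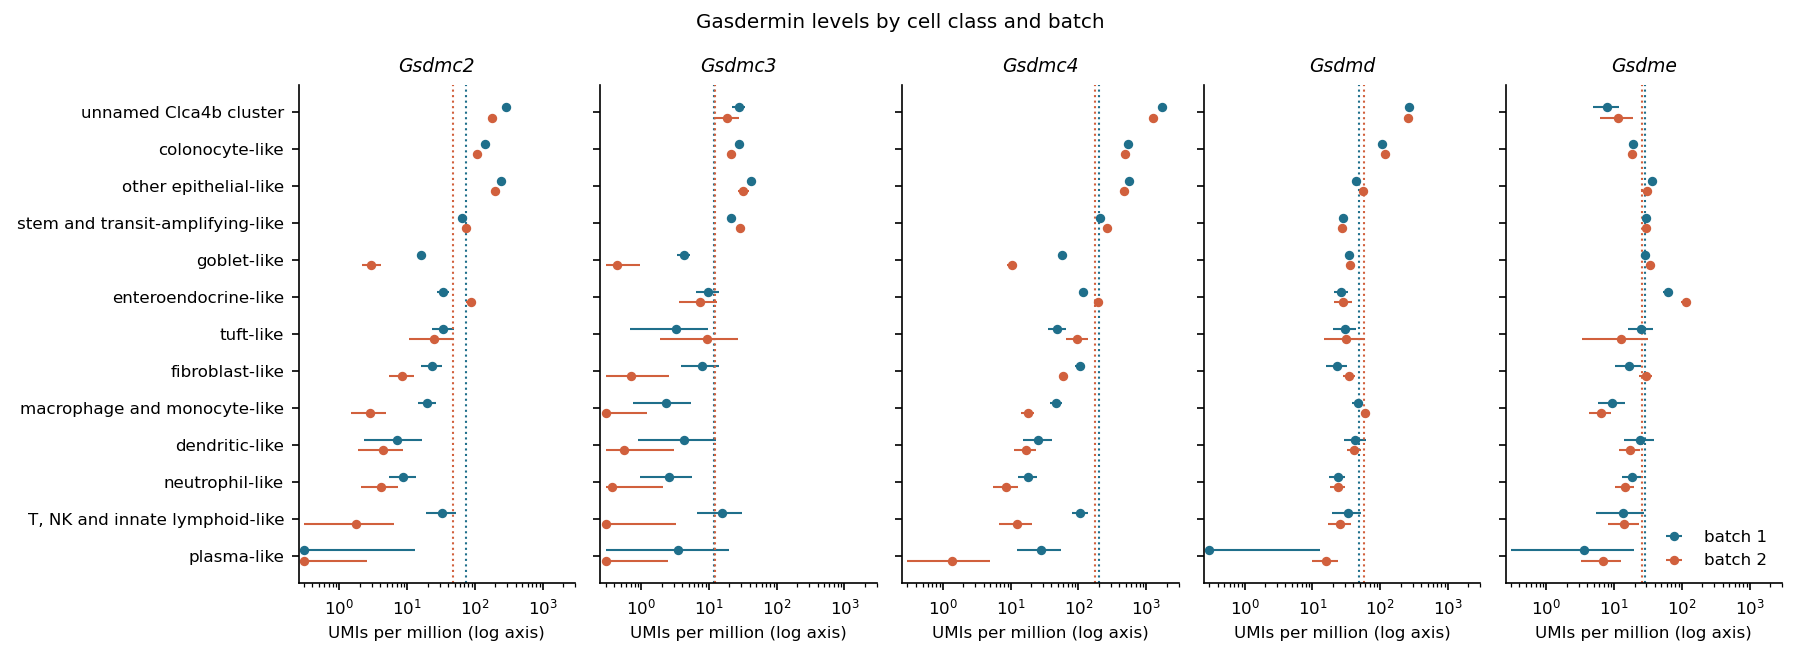
Level of 5 gasdermins in 13 cell classes, in CPM on a log axis. Points are the classes summed per batch, bars are exact 95% Poisson intervals for counting error, and dotted lines are the free RNA level of each batch; values under 0.3 are drawn at 0.3. Gsdmc4 in the Clca4b cluster lies at 1717 and 1250, to the right of colonocyte-like cells at 547 and 490, while Gsdme is farthest right in enteroendocrine-like cells.

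The share of cells with a UMI depends on depth, so cells were also thinned to 2000 UMIs. Of thinned colonocyte-like cells, 30.9% in batch 1 and 25.9% in batch 2 held a Gsdmc4 UMI, and 19.2% and 20.6% held a Gsdmd UMI. Without thinning these shares were 47.1% and 39.4% for Gsdmc4 and 60.9% and 67.0% for Gsdmd, at median depths of 11621 and 12562 UMIs. Neutrophil-like cells, used as a background class for Gsdmc4, had it in 4.81% and 2.07% of cells, and in 2.33% and 1.17% after thinning, at median depths of 2583 and 2931.5. Gsdmc4 and Gsdmd thus changed order with depth in colonocyte-like cells, where Gsdmc4 had more UMIs in fewer cells.

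That unequal spread was measured directly in colonocyte-like cells. The richest 10% of colonocyte-like cells held 57.4% and 66.9% of all Gsdmc4 UMIs in batches 1 and 2, and 71.4% and 79.2% of Gsdmc2 UMIs. Genes whose summed UMIs lay within 1.25 times of Gsdmc4 had a median of 24.5% and 25.2% in their richest 10% of cells, and 3 of 125 and 2 of 151 such genes were above Gsdmc4. For Gsdmd the share was 24.9% and 23.9%, next to medians of 25.4% and 24.7% for genes of like level.

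The concentration differed between the clusters that make up the colonocyte-like class. In cluster 6, led by the bile acid transporter gene Slc10a2, the richest 10% of cells held 75.6% and 86.9% of Gsdmc4 UMIs, where genes of like level had medians of 21.2% and 20.9%. In cluster 4, led by Aqp4 and Cyp2c genes, they held 33.9% and 33.1%, next to medians of 20.6% and 21.9%. In cluster 2, the dividing cells led by Birc5, they held 42.1% and 40% beside 18.7% and 17.3%. Gsdmd in cluster 6 had 27.9% and 31.2%, beside medians of 24.0% and 22.4%. Gsdmc4 was therefore carried by a minority of cells in cluster 6 and spread more evenly in cluster 4; these are descriptions of 1 library per batch, with no test.

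**Figure D2:**
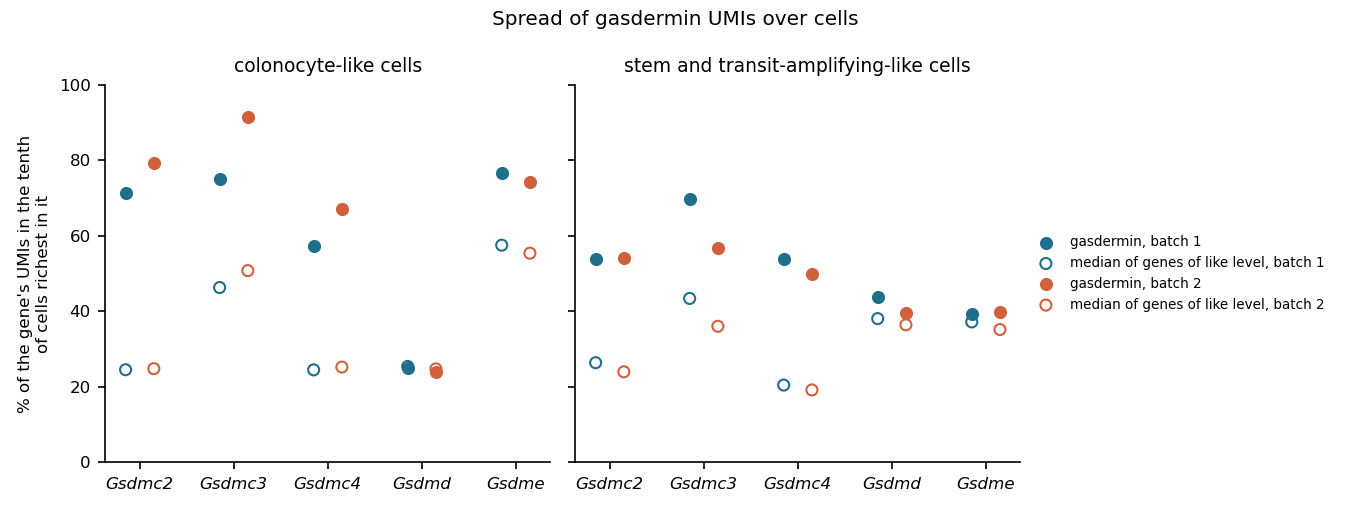
Percent of a gene's UMIs held by the 10% of cells richest in it, for 5 gasdermins in colonocyte-like and in stem and transit-amplifying-like cells of each batch. Filled points are the gasdermins and open points are the medians of genes with like summed UMIs; Gsdmc4 in colonocyte-like cells lies at 57.4% and 66.9%, above open points near 25%, while Gsdmd there lies on its open points.

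Cells with Gsdmc4 also held Gsdmc2 more often. Among 4608 and 2752 cells thinned to 2000 UMIs, taken from the epithelial-like cells and the Clca4b cluster together, Gsdmc2 was found in 29.5% of cells with a Gsdmc4 UMI and 5.00% of cells without one in batch 1, and in 33.0% and 2.66% in batch 2. Gsdmc3 was found in 11% and 1.68% in batch 1 and in 9.60% and 0.918% in batch 2. Gsdmd was found in 13.5% of cells with a Gsdmc4 UMI and 10.0% without in batch 1, and in 16.1% and 13.2% in batch 2. The Gsdmc genes were thus detected together in the same cells, by a wider margin than Gsdmd; unequal subtypes and sequence shared by the copies enter these shares, and their part was not tested.

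The balance among the Gsdmc genes differed between clusters of 1 batch, and for some clusters it was alike in both batches. Of the UMIs of Gsdmc2, Gsdmc3 and Gsdmc4 together, Gsdmc2 made up 28.7% (95% Clopper-Pearson interval 27.5 to 29.9) and 27.3% (25.9 to 28.7) in cluster 6. In cluster 10, with Ces1g among its leading genes, it made up 29.2% (28.1 to 30.3) and 28.6% (26.9 to 30.4). In cluster 4 it made up 14.2% (13.5 to 15) and 13.4% (12.6 to 14.1), and in the Clca4b cluster 14.3% (13.4 to 15.2) and 12.4% (10.9 to 14). In cluster 9, with Tgm3 among its leading genes, it was 7.32% (4.84 to 10.5) and 7.0% (4.20 to 10.8). Other clusters were less alike in the batches. Gsdmc2 made up 20.6% (16.6 to 25.0) and 13.9% (11.1 to 17.0) in cluster 7, where the intervals overlapped. In the enteroendocrine-like cluster 11 it made up 21.3% (17.6 to 25.3) and 30.6% (26.3 to 35.2). The batch 2 value there rested on very few cells: a single cell held 75.8% of its 132 Gsdmc2 UMIs, and a single cell held 84.0% of its 288 Gsdmc4 UMIs. Free RNA had 25.2% (23.0 to 27.6) and 19.8% (17.7 to 22.0). Intervals cover counting error only, and UMIs of 1 cell are not independent.

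The level itself also differed between these clusters. Gsdmc4 had 81.1 and 56.1 CPM in the cluster led by Htr4, Smoc2 and the stem cell gene Lgr5, 282 and 357 in the dividing Birc5 cluster, 441 and 380 in the Slc10a2 cluster, 852 and 971 in the Aqp4 cluster, and 168 and 123 in the Tgm3 cluster. The Aqp8 cluster had 124 and 94.9 CPM. Free RNA had 204 and 178 CPM of Gsdmc4, so the Lgr5, Tgm3 and Aqp8 levels lay below it. The part of free RNA in these levels was not tested. Gsdmd took another course, with 22.0 and 18.9 CPM in the Lgr5 cluster, 102 and 118 in the Slc10a2 cluster, 90.7 and 113 in the Aqp4 cluster, 126 and 142 in the Tgm3 cluster and 149 and 124 in the Aqp8 cluster. These colonocyte-like levels of Gsdmd all lay above its 48.9 and 58.6 CPM in free RNA, also in the clusters where Gsdmc4 lay below its own. In the Aqp8 and Tgm3 clusters the median depth was 6021 to 9784.5 UMIs, against 14922 to 18719 in the Aqp4 and Slc10a2 clusters, and the part of depth was not tested.

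**Figure D3:**
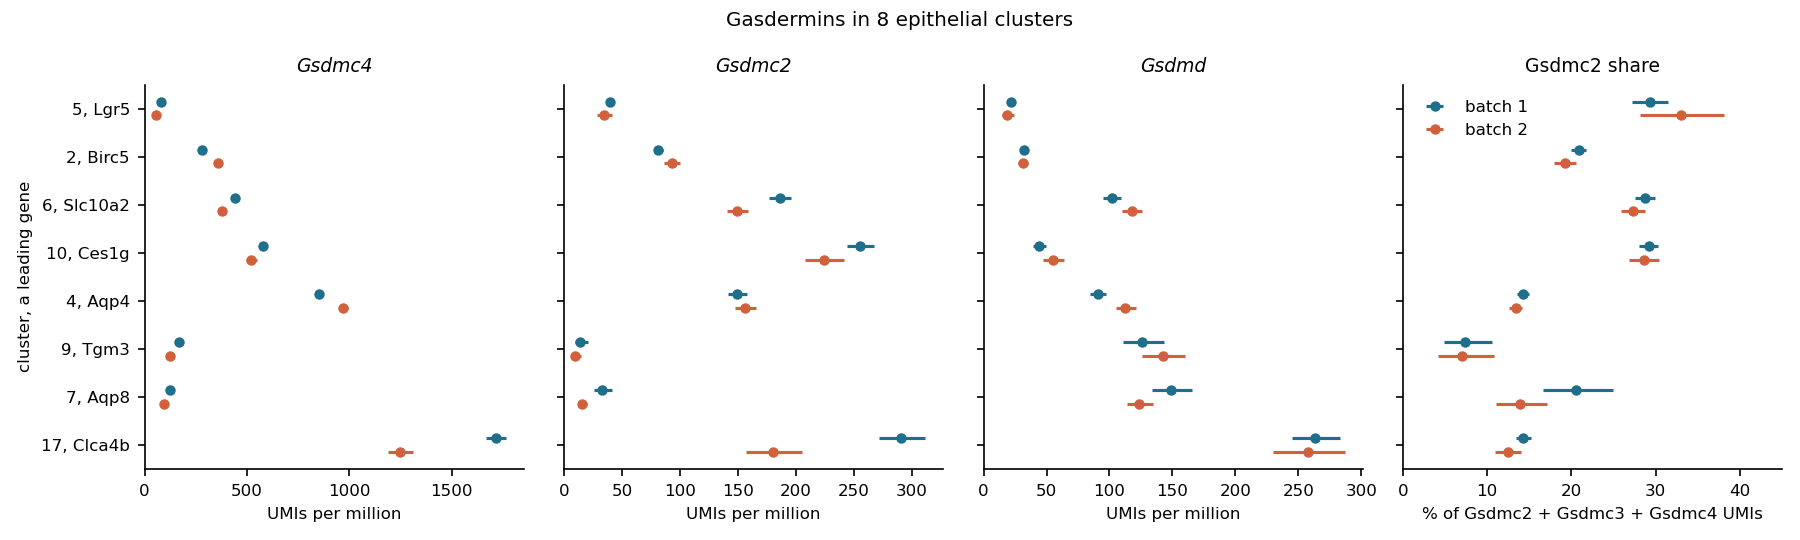
Gsdmc4, Gsdmc2 and Gsdmd in CPM, and the percent of Gsdmc2, Gsdmc3 and Gsdmc4 UMIs that were Gsdmc2, in 8 epithelial clusters of each batch. Bars are exact 95% intervals, Poisson for levels and Clopper-Pearson for the percent. Gsdmc2 makes up 27.3 to 29.2% in the Slc10a2 and Ces1g clusters and 12.4 to 14.3% in the Aqp4 and Clca4b clusters.

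Over 26 profiles, 13 classes in each batch, the gene most like Gsdmc4 among 8964 was Gsdmc2 (Pearson r = 0.97 of log2(CPM + 1)), followed by Tm4sf20 (0.95) and Clcn2 (0.94). Gsdmc3 was most like Dmbt1 (0.96) and Gsdmc2 (0.95). Gsdmd was most like Smpdl3a (0.92), Chmp2a (0.90) and Rab11a (0.90), and Gsdme was most like Sv2c (0.88) and Pde4d (0.84). Between the gasdermins, Gsdmd had r = 0.61 with Gsdmc4 and -0.42 with Gsdme. The profiles share their libraries and free RNA, and the r values are descriptions.

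Genes that act with gasdermins were also highest in different classes. Casp1 had 212 and 216 CPM in colonocyte-like cells and 214 and 197 in the Clca4b cluster, Casp8 had 254 and 182 in the Clca4b cluster, and the cytokine gene Il18 had 521 and 643 there. Naip1, a sensor of bacterial proteins, had 181 and 203 CPM in colonocyte-like cells. Casp4 was highest in neutrophil-like cells at 363 and 347 CPM, as were Nlrp3 at 2430 and 1987 and Ninj1, which ruptures the membrane after pore formation, at 281 and 347. Among the other 4 family members, Gsdma had 107 and 202 CPM in enteroendocrine-like cells and at most 6.57 in any other class.

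Tags were compared in summed cells of each tag and batch. The labels depend on the calling rule. The alternative highest-tag rule needed a tag at least 3 times the next, relative to batch medians. Under it, epithelial-like cells labelled Ctrl_WT numbered 18 and 35 in batches 1 and 2, against 95 and 54 by the main rule. TG_DSS had 50 and 66 against 133 and 105, and Ctrl_DSS had 83 and 138 against 284 and 376. TG_WT had 274 and 260 against 326 and 208. The question the design poses is how DSS and loss of JUP change the colon. The question for these genes is whether any of their levels differed between tags by more than the spread between batches. Each tag has 2 sums, 1 per batch, and no source says that the batches came from separate mice, so p-values measure only the spread between these sums. Contrasts that share a tag are not independent. Tests were edgeR quasi-likelihood tests with batch as a term and Benjamini-Hochberg adjustment over all genes tested.

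In epithelial-like cells as a whole, 5 of the 6 genes passed the filter on low counts and none was called in any of 6 contrasts at an adjusted p of 0.05. Of all 12623 genes tested, 0.0238% were called in TG_DSS vs Ctrl_WT, 0.309% in TG_DSS vs Ctrl_DSS, and 0% in TG_DSS vs TG_WT, TG_WT vs Ctrl_WT, Ctrl_DSS vs Ctrl_WT and the interaction. At an unadjusted edgeR p under 0.05 there were 1, 1, 3, 1, 3 and 0 of the 5 genes in that order of contrasts, where 19.2%, 14.1%, 9.7%, 6.21%, 13.8% and 5.66% of all genes tested had such a p. The median log2 fold change of the 5 genes was -0.58 in TG_DSS vs Ctrl_WT, 0.25 in TG_DSS vs Ctrl_DSS, -0.89 in TG_DSS vs TG_WT, 0.33 in TG_WT vs Ctrl_WT and -1.06 in Ctrl_DSS vs Ctrl_WT. The median over all genes tested lay between -0.03 and 0.01 in each.

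Gsdmc2 in epithelial-like cells had 93.9 and 56.6 CPM with TG_DSS, 134 and 137 with TG_WT, 43.3 and 38.6 with Ctrl_DSS, and 84.9 and 133 with Ctrl_WT in batches 1 and 2. The 2 Ctrl_DSS sums were the lowest of the 8, and the 2 TG_WT sums and the Ctrl_WT sum of batch 2 the highest. Gsdmc2 had a log2 fold change of -1.45 in Ctrl_DSS vs Ctrl_WT (SE 0.292, edgeR adjusted p = 0.148), with -1.0 and -1.77 within batches 1 and 2. DESeq2 on the same sums called it (adjusted p = 0.00114), as did edgeR without the filter on low counts (0.00133) and without cells that held leukocyte UMIs (0.0459). These fits called 314, 364 and 106 genes in all in that contrast, where edgeR with the filter called 0. Over all alternatives its adjusted p ran between 0.00114 and 0.670. Within TG_DSS vs TG_WT, Gsdmc2 had -0.90 (SE 0.281, edgeR adjusted p = 0.453).

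Gsdmc4 in epithelial-like cells had 274 and 152 CPM with TG_DSS, 484 and 362 with TG_WT, 181 and 146 with Ctrl_DSS, and 225 and 428 with Ctrl_WT. Ctrl_DSS sums were lower than Ctrl_WT sums in both batches, while TG_DSS was higher than Ctrl_WT in batch 1 and lower in batch 2. Its log2 fold change was -1.08 in Ctrl_DSS vs Ctrl_WT (SE 0.370, edgeR adjusted p = 0.280) and -1.05 in TG_DSS vs TG_WT (SE 0.365, adjusted p = 0.457). The within-batch values for Ctrl_DSS vs Ctrl_WT were -0.34 and -1.55.

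The mix of subtypes differed between these sums. Colonocyte-like cells made up 19.5% and 20.0% of epithelial-like cells labelled TG_DSS, 31.9% and 36.5% of TG_WT, 11.3% and 27.1% of Ctrl_DSS, then 43.2% and 51.9% of Ctrl_WT. Goblet-like cells made up 38.3% and 38.1% with TG_DSS, 29.8% and 26.9% with TG_WT, 43.0% and 41.0% with Ctrl_DSS, and 18.9% and 7.41% with Ctrl_WT. Leaving out the goblet-like, tuft-like and enteroendocrine-like clusters, Gsdmc2 had -0.88 in Ctrl_DSS vs Ctrl_WT (edgeR adjusted p = 0.244) and Gsdmc4 had -0.47 (0.515).

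Gsdmd in epithelial-like cells had 43.6 and 48.6 CPM with TG_DSS, 47.9 and 99.3 with TG_WT, 35.4 and 44.0 with Ctrl_DSS, and 59.96 and 33.4 with Ctrl_WT. Gsdmd in the TG_WT sum of batch 2 stood above the other 7, and the batches disagreed in direction in TG_WT vs Ctrl_WT (-0.37 and 1.60). No Gsdmd contrast was called, with edgeR adjusted p-values of 0.606 to 0.960. Gsdme had 31.0 and 32.4 CPM with TG_DSS, 24.7 and 34.7 with TG_WT, 24.1 and 30.2 with Ctrl_DSS, and 16.3 and 23.7 with Ctrl_WT. TG_DSS sums of Gsdme were above both Ctrl_WT sums (log2 fold change 0.63, SE 0.213, edgeR adjusted p = 0.185). Enteroendocrine-like cells, the class where Gsdme was highest, made up 18.0% and 23.8% of epithelial-like cells with TG_DSS and 1.05% and 5.56% with Ctrl_WT.

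**Figure D4:**
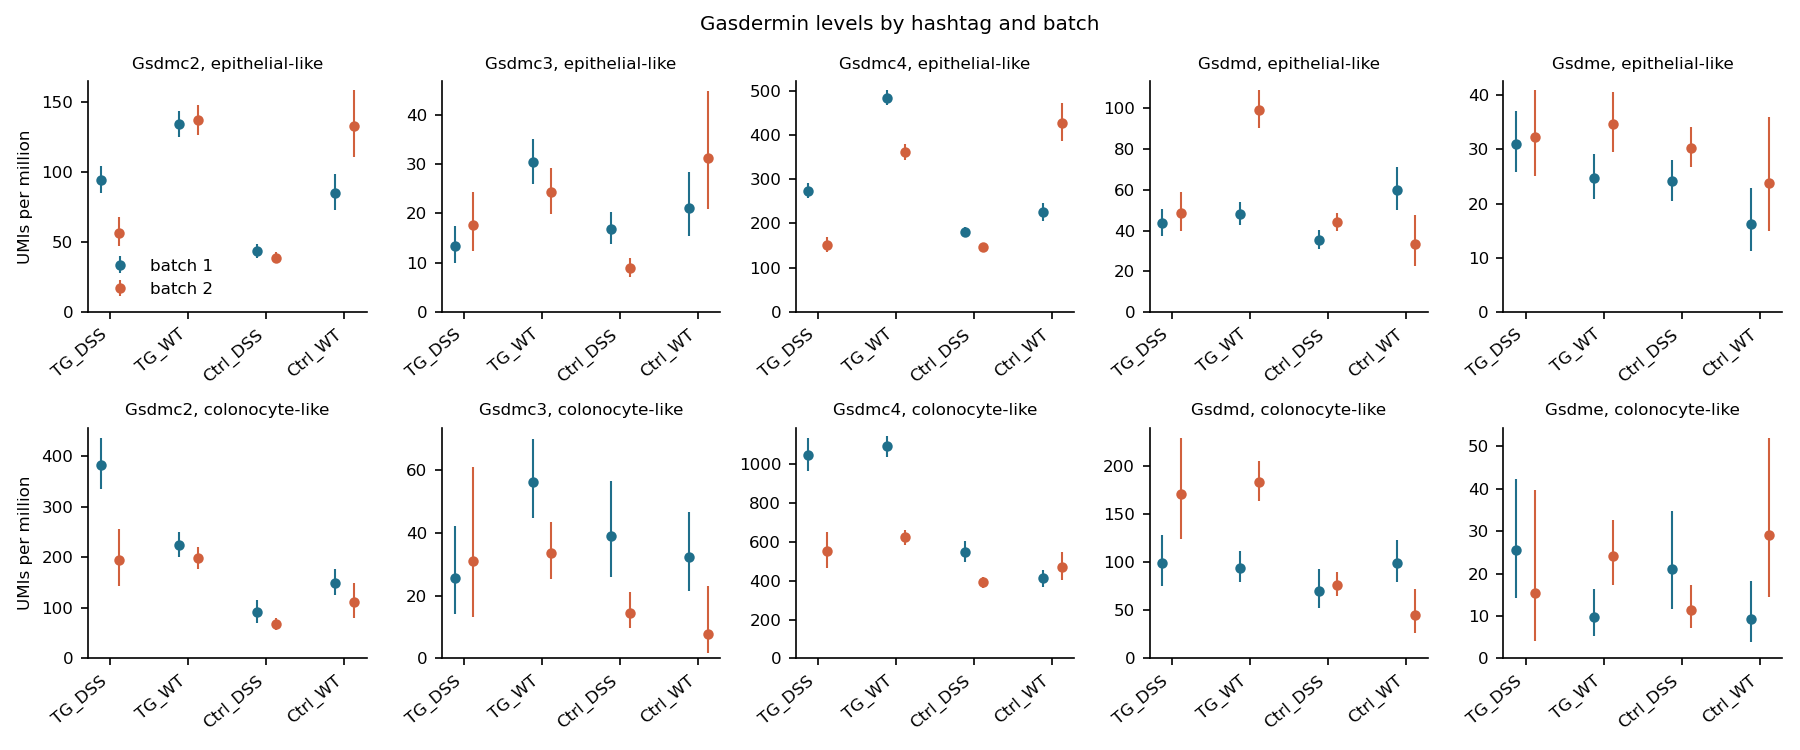
Levels of 5 gasdermins by tag and batch in all epithelial-like cells (upper row) and in colonocyte-like cells (lower row), in CPM with exact 95% Poisson intervals. In the upper row the Ctrl_DSS points of Gsdmc2 lie at 43.3 and 38.6, below all others; in the lower row its TG_DSS points lie at 383 and 194 and its Ctrl_DSS points at 91.0 and 67.2.

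Within epithelial subtypes, colonocyte-like and goblet-like cells could be tested, and 1 of 40 pairs of gene and contrast was called. It was Gsdmc2 in colonocyte-like cells, higher with TG_DSS than with Ctrl_DSS. In this contrast 0.518% of 7530 genes were called. In the other colonocyte-like contrasts none of the 5 genes was called, where 0.372% of genes were called in TG_DSS vs Ctrl_WT, 0.133% in TG_DSS vs TG_WT, 0.0133% in Ctrl_DSS vs Ctrl_WT, and 0% in TG_WT vs Ctrl_WT and in the interaction. At an unadjusted p under 0.05 there were 2 of 5 in TG_DSS vs Ctrl_WT, 2 in TG_DSS vs Ctrl_DSS, 0 in TG_DSS vs TG_WT, 3 in TG_WT vs Ctrl_WT, 1 in Ctrl_DSS vs Ctrl_WT and 1 in the interaction. The shares of all 7530 genes with such an edgeR p were 5.58%, 5.64%, 3.55%, 3.8%, 3.23% and 3.61% in the same order. In goblet-like cells, 0 of 5 genes were called in TG_DSS vs Ctrl_DSS and in TG_DSS vs TG_WT, where 0% of 10948 genes were called in each, and 1 and 0 of the 5 had an unadjusted edgeR p under 0.05, as did 12.7% and 5.78% of all genes. Stem and transit-amplifying-like cells labelled TG_DSS and Ctrl_WT were fewer than 10 in batch 2 and were not tested.

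Gsdmc2 in colonocyte-like cells had 383 and 194 CPM with TG_DSS, 223 and 198 with TG_WT, 91.0 and 67.2 with Ctrl_DSS, and 149 and 111 with Ctrl_WT. TG_DSS and Ctrl_DSS sums did not overlap. The log2 fold change in TG_DSS vs Ctrl_DSS was 1.86 (SE 0.276, edgeR adjusted p = 0.0109), with 2.12 and 1.36 within batches 1 and 2. TG_DSS against Ctrl_WT gave 1.17 (SE 0.276, adjusted p = 0.194), and the interaction, (TG_DSS - TG_WT) - (Ctrl_DSS - Ctrl_WT), gave 1.08 (SE 0.383, adjusted p = 1).

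The TG_DSS sums behind this call held 26 and 21 cells. A single cell carried 46.9% of the 224 Gsdmc2 UMIs in batch 1 and 80.0% of the 50 in batch 2. Without that cell the levels were 219 and 44.7 CPM with TG_DSS, against 75.1 and 54.7 with Ctrl_DSS after the same step, so the groups overlapped. Gsdmc2 was seen in 13 of 26 and 5 of 21 colonocyte-like cells with TG_DSS, and in 19 of 32 and 28 of 102 with Ctrl_DSS. The call was lost without the TG_DSS sum of batch 1 (1.43, adjusted p = 0.333), without the Ctrl_DSS sum of batch 1 (1.78, 0.239) or batch 2 (1.91, 0.259), and without cells of over 3 times the median UMIs (1.25, 0.938), all by edgeR. Under the highest-tag rule, which needs a tag at least 3 times the next relative to the batch medians, the contrast could not be fitted because the Ctrl_DSS sum of batch 1 held 6 cells. Over the alternatives that gave a value the adjusted p ran between 6.17e-06 and 0.938.

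**Figure D5:**
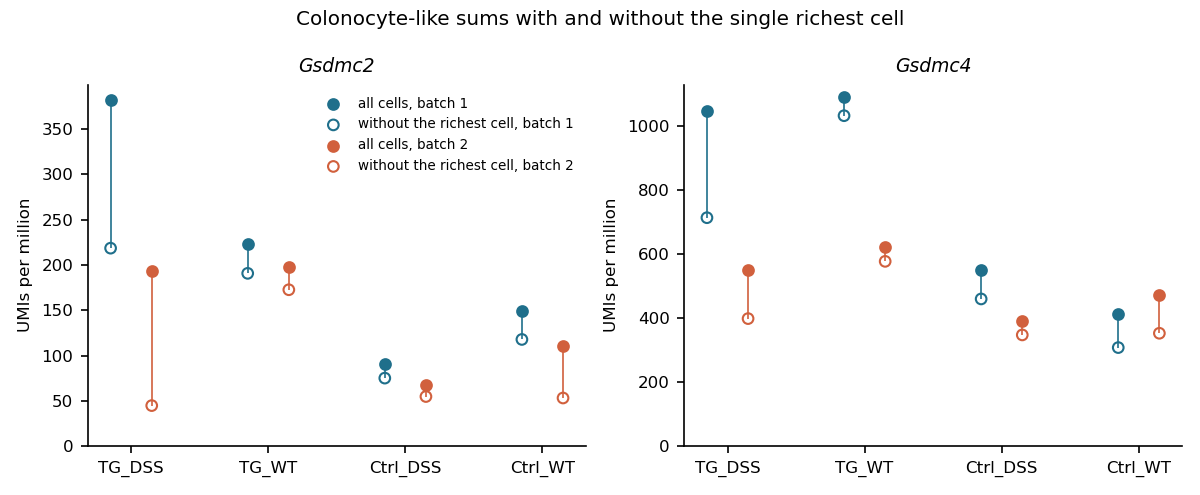
Gsdmc2 and Gsdmc4 in colonocyte-like cells by tag and batch, in CPM, with all cells (filled) and without the single cell richest in the gene (open). For Gsdmc2 with TG_DSS the points without that cell lie at 219 and 44.7, against 383 and 194 with all cells.

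Cluster 4 made up 42.3% and 42.9% of colonocyte-like cells with TG_DSS and 59.4% and 23.5% with Ctrl_DSS, and cluster 6 made up 34.6% and 28.6% with TG_DSS and 21.9% and 33.3% with Ctrl_DSS. Neutrophil markers moved with the TG_DSS tag. The 10 listed markers summed to 4420 and 4729 CPM in colonocyte-like cells with TG_DSS, 205 and 938 with TG_WT, 86.8 and 106 with Ctrl_DSS, and 103 and 105 with Ctrl_WT. With TG_DSS 9 and 10 of the 10 were detected (Mmp8 at 0 in batch 1), against 3 and 7 with Ctrl_DSS, where Cxcr2, Mmp8 and Mmp9 were at 0 in both batches. Gsdmc2 in neutrophil-like cells was 8.72 and 4.11 CPM, below its level in colonocyte-like cells of every tag. In TG_DSS sums of all epithelial-like cells the same markers reached 10800 and 20281 CPM, against 87.7 and 6559 with TG_WT, 199 and 203 with Ctrl_DSS, and 211 and 70.0 with Ctrl_WT; their part in the levels there was not tested.

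Gsdmc4 in colonocyte-like cells had 1045 and 550 CPM with TG_DSS, 1089 and 622 with TG_WT, 549 and 391 with Ctrl_DSS, and 411 and 472 with Ctrl_WT. Both TG tags lay above both Ctrl tags in each batch, although the TG_DSS sum of batch 2 (550) and the Ctrl_DSS sum of batch 1 (549) nearly met. The log2 fold changes were 0.81 in TG_DSS vs Ctrl_WT (SE 0.299, edgeR adjusted p = 0.751), 0.75 in TG_DSS vs Ctrl_DSS (SE 0.293, 0.831) and 0.94 in TG_WT vs Ctrl_WT (SE 0.294, 0.999). None passed. Gsdmd in colonocyte-like cells had 99.1 and 170 CPM with TG_DSS, 94.0 and 183 with TG_WT, 70.0 and 76.5 with Ctrl_DSS, and 99.4 and 44.8 with Ctrl_WT, with edgeR adjusted p-values of 0.938 to 1.

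In leukocyte classes, 0 of 9 pairs were called by edgeR and 0 by DESeq2. Gsdmd in macrophage and monocyte-like cells was tested in 6 contrasts, where 0% of 3693 genes were called, and had 49.7 and 54.2 CPM with TG_DSS, 16.3 and 67.8 with TG_WT, 28.8 and 32.9 with Ctrl_DSS and 49.0 and 25.0 with Ctrl_WT. Neutrophil-like cells allowed TG_DSS vs TG_WT only, where 0.167% of 5390 genes were called. Gsdmd there had 24.0 and 25.3 CPM with TG_DSS and 22.9 and 20.6 with TG_WT (log2 fold change 0.21, SE 0.604, edgeR adjusted p = 1.00). None of the 9 had an unadjusted edgeR p under 0.05, against 4.25% of all genes in neutrophil-like cells. In macrophage and monocyte-like cells the shares of all genes with such an edgeR p were 8.83% in TG_DSS vs Ctrl_WT, 0.704% in TG_DSS vs TG_WT, 7.45% in TG_DSS vs Ctrl_DSS, 5.01% in TG_WT vs Ctrl_WT, 3.9% in Ctrl_DSS vs Ctrl_WT and 1.95% in the interaction.

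Among 10 genes for pore cargo, membrane rupture and repair, 9 were tested in colonocyte-like cells and 1, Il1b, was called. Il1b, the gene of the interleukin-1 beta precursor, had 1183 and 860 CPM with TG_DSS, 15.3 and 97.0 with TG_WT, 7.0 and 9.37 with Ctrl_DSS, and 3.47 and 2.64 with Ctrl_WT, where the sums held 3 and 1 UMIs of it. Its log2 fold change was 7.15 in TG_DSS vs Ctrl_DSS (SE 0.724, edgeR adjusted p = 0.00112), 4.44 in TG_DSS vs TG_WT (SE 0.608, 0.0183) and 8.31 in TG_DSS vs Ctrl_WT (SE 0.849, 0.00163). Neutrophil-like cells had 27524 and 19325 CPM of Il1b, and the neutrophil markers named above moved with it; their part in it was not tested. The TG_DSS vs Ctrl_DSS call was lost at a limit of 10% mitochondrial UMIs (6.37, edgeR adjusted p = 0.144), the highest p over its alternatives.

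None of the other lists had a called gene in epithelial-like or colonocyte-like cells. Of 10 gasdermin-cleaving proteases 6 were tested in epithelial-like cells, and those with the smallest p were Casp1 in TG_DSS vs Ctrl_WT (-0.86, edgeR adjusted p = 0.0968) and Casp4 in TG_DSS vs Ctrl_DSS (0.81, 0.157). Of 12 inflammasome sensors and adaptor 11 were tested, led by Naip1 in Ctrl_DSS vs Ctrl_WT (-0.89, edgeR adjusted p = 0.135) and Nlrp3 in TG_DSS vs Ctrl_DSS (6.57, 0.0889). All 10 cargo, rupture and repair genes were tested in epithelial-like cells, led by Chmp3 in TG_DSS vs Ctrl_WT (-0.61, edgeR adjusted p = 0.113) and Ninj1 in TG_DSS vs Ctrl_DSS (0.73, 0.113). Casp4, Nlrp3 and Ninj1 were highest in neutrophil-like cells, whose markers summed to 10800 and 20281 CPM in these TG_DSS sums and 199 and 203 in Ctrl_DSS; their part in these differences was not tested.

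Of the 5 regulators of Gsdmd, all tested, Zdhhc7 in TG_WT vs Ctrl_WT (-0.58, edgeR adjusted p = 0.783) and Irf1 in TG_DSS vs Ctrl_DSS (1.18, 0.405) had the smallest p. Of 8 genes of the type 2 cytokine axis 5 were tested, led by Retnlb, a goblet cell product, in TG_DSS vs Ctrl_WT (2.91, edgeR adjusted p = 0.118) and Stat6 (0.73, 0.202). Of the other gasdermins only Gsdma was tested, with 2.67 in TG_DSS vs Ctrl_DSS (edgeR adjusted p = 0.308).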

How the data were processed

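The deposited values are raw UMI counts per gene and barcode, made by the authors with Cell Ranger 7.0.0 on mm10, per the submitters' processing notes. The members and gene lists were chosen with earlier results of these data known, as were the limits for naming clusters. Cells were barcodes above 0.1 of the 99th percentile of the 14000 richest, or with at least 500 UMIs and a profile unlike free RNA (10000 draws, adjusted p at most 0.01), holding 250 or more genes and no more than 25% mitochondrial UMIs. The files held 2082989 and 1567140 barcodes and 133919905 and 95408149 UMIs.

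Tags were called per batch with a 2-component Gaussian mixture (scikit-learn 1.9.0). Cells over several thresholds (266 and 699) were left out as doublets, and no other doublet caller was run. Clustering used scanpy 1.11.5 (2000 variable genes without the 6 gasdermins, 30 components, 15 neighbours, Leiden at resolution 1.0). Clusters were named from marker lists; no authors' annotation was used here. Sums of at least 10 cells were tested with edgeR 4.0.16 in R 4.3.3 (TMM, filterByExpr, tag and batch as terms); DESeq2 1.42.0 was an alternative. The test was also run on simulated counts with the same dispersion for all genes and no batch effect. Those counts do not reproduce UMIs concentrated in single cells, so they cannot show how the test does for such genes. Genes named outside the members were those of each list past the test or, where none passed, the 2 with the smallest p.

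Batch is a 10x run into which all 4 tags were mixed, per the labels, so it pairs the sums and entered each fit. Deviations from the tag mean correlated between sums of the same batch at -0.16 to 0.28 over 12 pairs. Intervals cover counting error only.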

Additional observations from a re-analysis of the deposited data

How the results depend on the processing

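In epithelial-like cells the 0 called pairs of gene and contrast became 1 with DESeq2, 5 without the filter on low counts and 1 without cells holding leukocyte UMIs, and stayed at 0 with each sum left out. In epithelial subtypes the 1 called pair became 2 without the filter, 0 under the highest-tag rule (where that contrast could not be fitted), 0 without high-UMI cells and 0 to 2 with each sum left out. It was 0 without the TG_DSS sum of batch 1 or either Ctrl_DSS sum, and 2 without either TG_WT sum or the Ctrl_WT sum of batch 1. In leukocyte classes no pair was called with a sum left out; without the TG_WT sum of batch 2 none was tested. Fits with a sum left out took in contrasts where a tag had only 1 sum, which the main fit did not test. Their counts therefore cover other sets of pairs than the main counts. With no replicate block, the counts were 0, 1 and 0. Over all genes, 39 were called in TG_DSS vs Ctrl_DSS in epithelial-like cells, against 465 with DESeq2, 862 without the filter, 0 with no replicate block and 0 to 618 with a sum left out. The Gsdmc2 interaction in colonocyte-like cells turned to -0.11 (SE 0.787) without high-UMI cells; the cause was not tested. Gsdmc4 in colonocyte-like cells averaged 518 CPM, against 358 as a mean of single-cell CPM, 656 in tagged cells only, 581 at up to 10% mitochondrial UMIs and 466 without high-UMI cells, and 490 to 547 by batch. Gsdmc2 there averaged 123 CPM, against 77.8 as a mean of single-cell CPM. Gsdmd there stayed within 105 to 120 CPM by batch, and Gsdme in enteroendocrine-like cells within 61.9 to 115. Of the named fold changes under other settings, 124 kept direction and call, 8 became called, 2 lost the call and 1 turned; with a sum left out, 99 kept both, 2 became called and 3 lost the call. Most of these named fold changes were not called in the main fit, so keeping the call mostly meant staying uncalled. Fits that could not be run are not counted. Clustering with another seed gave 0, 1 and 0 calls, and adding the Clca4b cluster to epithelial-like cells gave 0. Both settings were chosen after seeing the data. Sums of 21 to 104 colonocyte-like cells per tag limit what these comparisons can show.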
